A study of Homo sapiens with 38 samples.

Results

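The clustered protocadherins are a family of cell-surface adhesion molecules whose genes lie side by side on chromosome 5. They were taken here as all protein-coding GENCODE genes on chromosome 5 whose names start with PCDHA, PCDHB or PCDHG, which gave 53 of the 19970 protein-coding genes on the autosomes and the X chromosome. There were 15 members in the alpha cluster, 16 in the beta cluster and 22 in the gamma cluster, and all lay on the + strand. Each promoter was the annotated canonical transcription start site (TSS) plus or minus 1500 bp, and because neighbouring start sites were at least 3374 bp apart no 2 member promoters overlapped. In hg38 the alpha promoters ran from chr5:140786140 to 140966476, the beta promoters from 141051374 to 141245395 and the gamma promoters from 141330514 to 141489081.

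The data were CUT&RUN libraries, in which an antibody tethers a nuclease that releases the DNA around its target, from a pair of human non-small cell lung cancer cell lines. H1299 cells carried doxycycline-inducible Flag-DPPA2 and V5-DPPA4, received 2 µg/mL doxycycline for 7 days in every library, and do not make either protein on their own. They were profiled in 2 replicates each with antibodies to DPPA2, the DPPA4 N-terminus (DPPA4n), DPPA4 with no region named in the labels (ab154642), V5 and Flag, the last as a monoclonal and a superclonal reagent. H661 cells make both proteins. Untreated parental H661 cells gave 1 library each for DPPA2, DPPA4n, ab154642 and a central-region DPPA4 antibody (DPPA4c). H661 lines with inducible shRNAs against DPPA4 (shDPPA4) or against DPPA2 and DPPA4 (shDPPA2+4), which were bulk sorted populations, gave 1 library each after 7 days with water for DPPA4n, EP300, MTF2, PCGF1 and RING1B, and after 7 days with 2 µg/mL doxycycline for DPPA4n and RING1B. Of 38 samples, 30 had region lists and 8 were IgG controls whose reads enter those lists as the background. No H661 library had a replicate, so no value in H661 has a replicate error, and nothing in the labels says that the H1299 replicates came from separate cultures.

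Each alpha and gamma gene has its own promoter and first, variable exon, which is spliced to constant exons shared by the whole cluster, while each beta gene is a single-exon unit. Neurons switch on a small set of these promoters per cell, through CTCF and cohesin, and the choice gives the cell a surface identity. The C-type members at the ends of the alpha and gamma clusters (PCDHAC1, PCDHAC2, PCDHGC3, PCDHGC4 and PCDHGC5) are expressed more uniformly than the others. DPPA2 and DPPA4 are small SAP-domain chromatin proteins of early embryos that bind CpG-rich promoters. RING1B and PCGF1 belong to Polycomb repressive complex 1, MTF2 helps to bring Polycomb repressive complex 2 to CpG-rich DNA, and EP300 is a histone acetyltransferase of active regulatory regions.

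Most member promoters were poorer in G and C than promoters in general. Within 500 bp of the TSS the median GC content was 44.4% over the 53 members and 61.3% over all promoters, and the median ratio of observed to expected CpG was 0.665 and 0.725. By the limits used here (CpG-rich: GC over 55% and a CpG ratio over 0.75; CpG-poor: a ratio under 0.5) PCDHAC1 was the 1 CpG-rich member, 41 members were intermediate and 11 were CpG-poor, 9 of them beta genes. RefSeq promoter sequences (GRCh38.p14; 250 bases before to 50 bases after the start) were at hand for 47 of the 53 members, and they held a median of 7 CpGs against 22 over 15315 promoters. The first set shows, in each cluster, the promoter with the highest DPPA2 peak in parental H661, with CpG dinucleotides in capitals. In the alpha cluster this was PCDHAC1, with 27 CpGs, in the beta cluster PCDHB2, with 10, and in the gamma cluster PCDHGA10, with 5.
PCDHAC1, chr5:140926049-140926348, + strand: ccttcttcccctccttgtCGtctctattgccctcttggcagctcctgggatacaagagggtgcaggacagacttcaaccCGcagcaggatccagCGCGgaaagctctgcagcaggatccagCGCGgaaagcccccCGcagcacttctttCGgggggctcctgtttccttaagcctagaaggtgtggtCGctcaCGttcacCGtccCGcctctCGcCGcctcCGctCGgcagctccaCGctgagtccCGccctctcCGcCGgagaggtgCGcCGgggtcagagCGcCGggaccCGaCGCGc
PCDHB2, chr5:141094365-141094664, + strand: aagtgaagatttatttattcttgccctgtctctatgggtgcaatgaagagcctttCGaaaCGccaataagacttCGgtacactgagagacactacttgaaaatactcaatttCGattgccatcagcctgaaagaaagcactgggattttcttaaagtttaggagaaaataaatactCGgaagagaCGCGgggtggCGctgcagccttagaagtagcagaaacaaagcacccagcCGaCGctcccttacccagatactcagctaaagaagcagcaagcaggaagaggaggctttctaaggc
PCDHGA10, chr5:141412737-141413036, + strand: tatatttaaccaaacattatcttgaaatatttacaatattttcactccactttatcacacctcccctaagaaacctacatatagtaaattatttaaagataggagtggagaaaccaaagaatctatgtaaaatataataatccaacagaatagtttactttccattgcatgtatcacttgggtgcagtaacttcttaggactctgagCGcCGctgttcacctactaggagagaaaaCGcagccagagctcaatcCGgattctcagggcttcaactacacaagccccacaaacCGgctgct

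The second set shows the promoters with the highest CpG ratio among members that had no DPPA2 and no DPPA4 peak in parental H661, again with CpGs in capitals. They were PCDHA3, PCDHB4 with 12 CpGs, and PCDHGB6 with 16, so that PCDHGB6 held more CpGs than the DPPA2-bound PCDHGA10.
PCDHB4, chr5:141121568-141121867, + strand: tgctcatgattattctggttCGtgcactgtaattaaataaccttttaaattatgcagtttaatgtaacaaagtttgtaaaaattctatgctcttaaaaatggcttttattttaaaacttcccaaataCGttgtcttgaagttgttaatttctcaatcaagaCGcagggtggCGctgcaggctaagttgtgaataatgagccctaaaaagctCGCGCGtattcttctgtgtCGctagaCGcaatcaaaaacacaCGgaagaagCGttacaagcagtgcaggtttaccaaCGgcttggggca
PCDHGB6, chr5:141407771-141408070, + strand: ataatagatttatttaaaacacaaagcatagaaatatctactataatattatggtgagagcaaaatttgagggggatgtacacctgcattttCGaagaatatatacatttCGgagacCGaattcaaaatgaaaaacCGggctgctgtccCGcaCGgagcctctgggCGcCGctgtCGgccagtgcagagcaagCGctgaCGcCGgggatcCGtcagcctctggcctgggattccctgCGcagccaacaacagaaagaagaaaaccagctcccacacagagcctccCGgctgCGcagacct

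A last pair, chosen after the values were seen, shows a promoter with domains in H1299 libraries and in no H661 library (PCDHA11, 7 CpGs) and one with domains in H661 libraries and in no H1299 library (PCDHGB7, 11 CpGs). In a global alignment (match 1, mismatch and gap penalties of 1 and 2) the PCDHGB7 sequence was identical to that of PCDHGB6 at 230 of 311 columns (74.0%), yet PCDHGB7 had a domain in 12 libraries and PCDHGB6 in none.
PCDHA11, chr5:140868707-140869006, + strand: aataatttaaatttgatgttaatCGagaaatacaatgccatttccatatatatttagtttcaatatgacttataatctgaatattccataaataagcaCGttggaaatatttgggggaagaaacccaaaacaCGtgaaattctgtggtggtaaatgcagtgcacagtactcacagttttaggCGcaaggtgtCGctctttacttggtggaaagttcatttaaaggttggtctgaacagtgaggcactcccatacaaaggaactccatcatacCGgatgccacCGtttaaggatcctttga
PCDHGB7, chr5:141417427-141417726, + strand: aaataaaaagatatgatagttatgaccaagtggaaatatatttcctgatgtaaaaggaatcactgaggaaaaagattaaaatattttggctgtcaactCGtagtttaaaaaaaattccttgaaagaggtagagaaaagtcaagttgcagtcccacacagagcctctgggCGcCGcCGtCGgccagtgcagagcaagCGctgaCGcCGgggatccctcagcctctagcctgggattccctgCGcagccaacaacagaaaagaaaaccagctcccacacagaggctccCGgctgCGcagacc

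The 10-base word found in the largest number of member promoters, searched on both strands, was CAGCGCCACC (GGTGGCGCTG on the other strand). The word was picked by its count in these same sequences, so a high share among them follows from that choice. It was found in 12 of the 47 sequences and in 0.379% of the 15315 promoters. All 12 were beta genes, and both PCDHB2 and PCDHB4 above hold it. Of these 12 genes, PCDHB2 and PCDHB5 had domains in 6 or more libraries and 6 had none in any library.

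Regions were read from both deposited lists, the broader domains of EPIC2 and the peaks of MACS2, and a promoter was called where a region with an FDR under 0.05 and a log2 fold over IgG above 1 touched it. A domain or peak is an enrichment that passed a caller, so a promoter without one may still have carried reads. Of all 281 EPIC2 domains in the 727 kb from the PCDHA1 start to the end of the gamma cluster, 207 (73.7%) touched a member promoter, while the member windows made up 21.8% of that span. The 53 promoters were nonetheless among the less occupied of the genome. In 29 of the 53 (54.7%) no EPIC2 domain was found in any of the 30 libraries, and none of these 29 had a MACS2 peak either, while 17.2% of all promoters had no domain. Among 1503 other promoters within the members' own 5th to 95th percentile of GC content and CpG ratio, 16.1% had no domain in any library. This window (GC content 41.3 to 54.7%, CpG ratio 0.388 to 0.819) is a range and not a match. How promoters spread within it was not compared. Those without any domain were 8 of 15 alpha, 6 of 16 beta and 15 of 22 gamma promoters, PCDHA1, PCDHB3 and PCDHGA1 being the first of each along the chromosome. The plot of domains by promoter and library shows these empty columns beside a small number of filled ones.

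**Figure D1:**
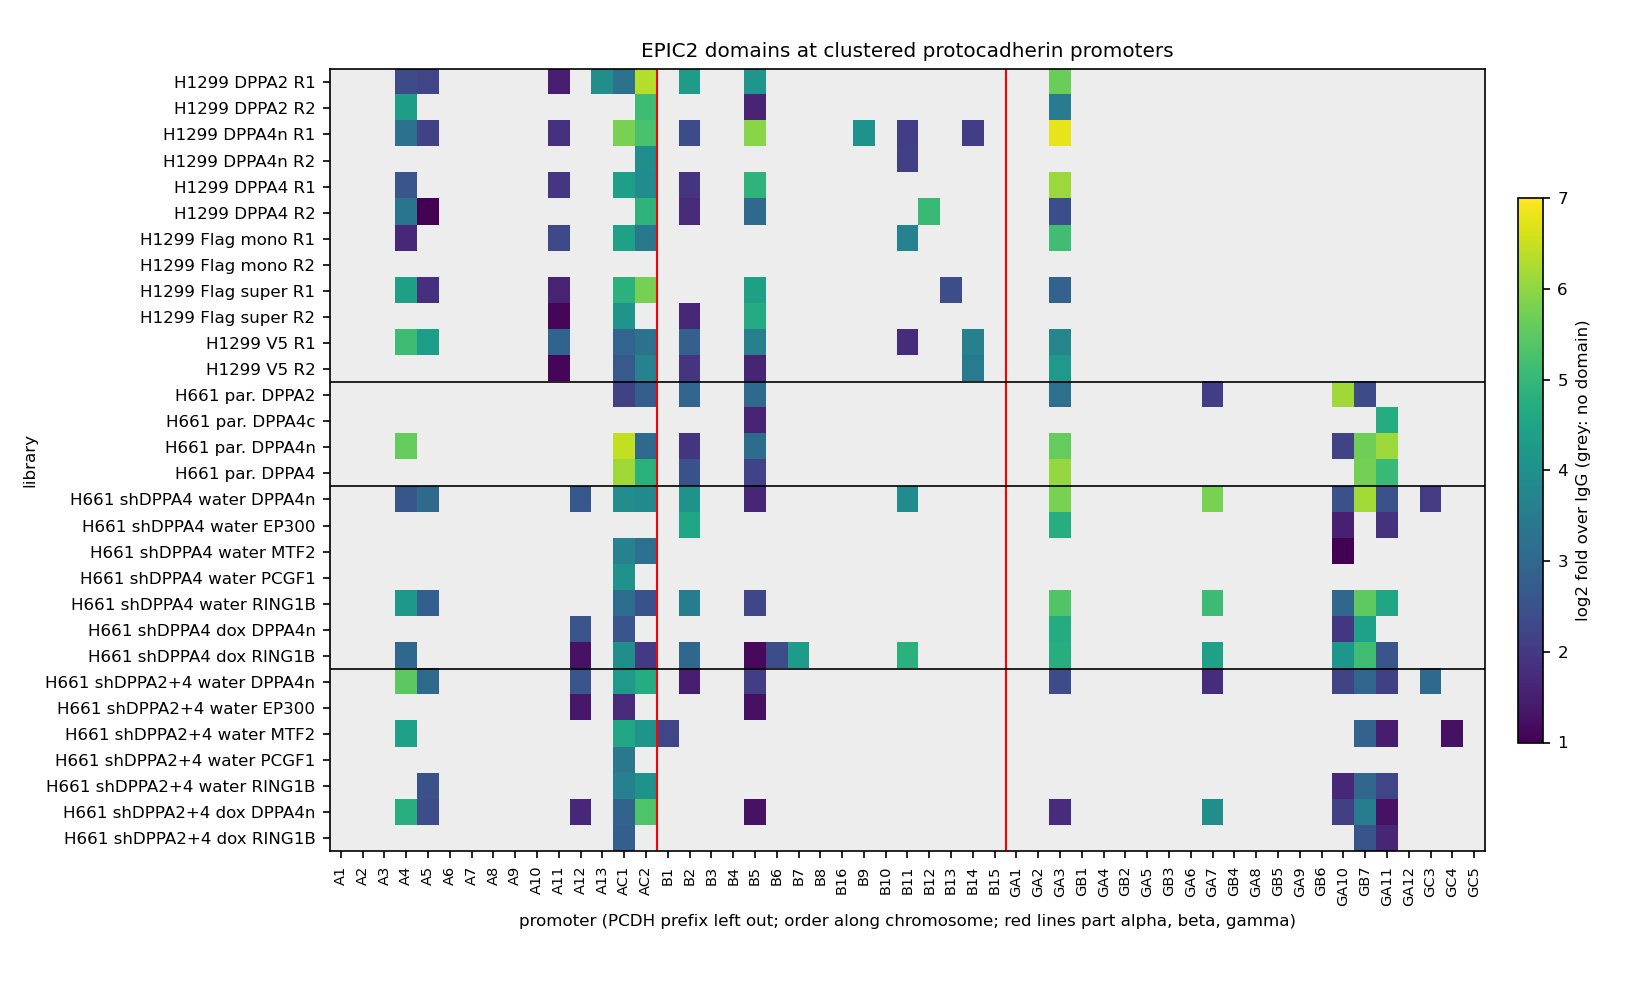
Log2 fold over IgG of the strongest EPIC2 domain at each of the 53 promoters (columns, in chromosomal order) in each of the 30 libraries (rows), with grey where no domain was called and R1 and R2 for the H1299 replicates. The filled cells stand in few columns, led by PCDHAC1 (24 libraries) and PCDHAC2 (21), and 29 columns are empty.

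The calls were concentrated in a few genes. Over the 30 libraries there were 197 pairs of a member and a library with a domain, and the 6 most frequent members (PCDHAC1, PCDHAC2, PCDHB5, PCDHGA3, PCDHA4 and PCDHB2) made up 113 of them (57.4%). The alpha C-type promoters led: PCDHAC1 had domains in 24 libraries and PCDHAC2 in 21. PCDHGA3 and PCDHB5 followed with 19 each, then PCDHA4 and PCDHB2 with 15 each, PCDHGB7 and PCDHGA11 with 12 each, PCDHGA10 with 11 and PCDHA5 with 10. PCDHA11 had domains in 8 libraries, and PCDHA12, PCDHB11 and PCDHGA7 in 6 each. The other 10 members with any domain had 1 to 3. Gamma C-type promoters did not share the occupancy of the alpha C-type promoters: PCDHGC3 had domains in 2 libraries, PCDHGC4 in 1 and PCDHGC5 in none. Their GC content was 53.4 to 55.7%, against 63.0 and 64.5% at PCDHAC1 and PCDHAC2, and its part in this was not tested. PCDHB5 (40.7%) and PCDHGA3 (46.1%), with 19 libraries each, had lower GC contents than the gamma C-type promoters.

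In parental H661, MACS2 peaks of DPPA2 stood at 7 of the 53 members, with 46.3% of all promoters as the background, and peaks of DPPA4n at 8, with 47.0%. With ab154642 there were 4 members (50.6% of all promoters), and with DPPA4c there was none (5.47%), in a library that had few peaks anywhere. Both DPPA2 and DPPA4n peaks stood at 4 members (7.55%), PCDHAC1, PCDHAC2, PCDHGA3 and PCDHGB7, against 39.2% of all promoters. Of the 1503 promoters in the window of GC content and CpG ratio, 25.3% had both. PCDHAC1 and PCDHAC2 themselves lay above that window in GC content. The beta cluster had none with both.

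At PCDHAC1 the MACS2 fold over IgG in parental H661 was 5.71 for DPPA2, 9.52 for DPPA4n and 6.16 for ab154642, the DPPA4n value being the highest of any member in that library. At PCDHGA3, a gamma A gene, the folds were 5.66, 6.34 and 6.84, and at PCDHGB7, a gamma B gene, 4.13, 6.98 and 7.46. PCDHAC2 had 4.39 for DPPA2 and 5.25 for DPPA4n and no peak with ab154642. The highest DPPA2 folds were at PCDHB2 and PCDHGA10, 6.79 at each, and neither had a DPPA4n peak. In turn PCDHGA11 (6.98), PCDHA4, PCDHA12 and PCDHGC3 (4.44 each) had a DPPA4n peak and no DPPA2 peak. The reads behind these calls were few: in EPIC2 the DPPA2 domain held 29 reads at PCDHAC1, 36 at PCDHAC2, 12 at PCDHGA3 and 20 at PCDHGB7, with 5, 4, 1 and 3 IgG reads. In the EPIC2 lists 7 members had both DPPA2 and DPPA4n domains in parental H661, the 4 named and PCDHB2, PCDHB5 and PCDHGA10.

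In H1299, where the tagged proteins were induced, EPIC2 domains were counted for each library. With the DPPA2 antibody they stood at 9 and 4 members in replicates 1 and 2 (62.8% and 42.5% of all promoters). With DPPA4n there were 11 and 2 (64.3% and 37.6%), and with ab154642 7 in either replicate (56.7% and 49.6%). The monoclonal Flag antibody gave 6 and 0 (59.4% and 5.27%), the superclonal 8 and 4 (58.9% and 33.8%), and V5 10 and 7 (65.2% and 53.0%). Replicate 1 had more members than replicate 2 with every antibody but ab154642, and more promoters of all kinds with every antibody. The second monoclonal Flag library held 48262 reads in its domains, the lowest of the 30 libraries, whose highest was 6850681.

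PCDHAC2 was the 1 member (1.89%) with DPPA2 and DPPA4n domains in both H1299 replicates, against 30.6% of all promoters. In replicate 1 taken alone 8 members had both (61.4% of all promoters), namely PCDHA4, PCDHA5, PCDHA11, PCDHAC1, PCDHAC2, PCDHB2, PCDHB5 and PCDHGA3, and in replicate 2 alone PCDHAC2 had both (30.7%). At PCDHAC2 the log2 fold was 6.33 and 5.14 for DPPA2, 5.28 and 3.94 for DPPA4n, 3.90 and 4.91 for ab154642 and 3.23 and 3.67 for V5, in replicates 1 and 2. These domains held 46 and 26 reads, 64 and 21, 20 and 9, and 83 and 54. PCDHGA3 reached the highest log2 fold of any member in any library, 6.77 for DPPA4n in replicate 1 (45 reads and no IgG read), and had no DPPA4n domain in replicate 2.

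The members called differed between the cell lines. Domains were compared in the 12 H1299 libraries and the 6 H661 libraries aimed at DPPA2 or DPPA4 without doxycycline-induced shRNA, with a Fisher's exact test (two-sided) at each of the 19970 promoters and Benjamini-Hochberg adjustment. Of the 14 members in 6 or more libraries, 8 had such domains in both lines, 5 in H661 libraries alone and 1 in H1299 libraries alone, where the shares of all 13923 promoters in 6 or more libraries were 91.7%, 5.39% and 1.92%. These 14 were taken by their calls in the same libraries. Of the 30 libraries, 18 were from H661 and 12 from H1299, so a member could pass this limit more easily with H661 domains. Below the limit, PCDHA13, PCDHB9, PCDHB12, PCDHB13 and PCDHB14 had such domains in H1299 libraries alone, and PCDHGC3 in H661 libraries alone. PCDHGB7 and PCDHGA11, neighbours whose start sites lie 3374 bp apart, each had domains in 0 of 12 H1299 and 5 of 6 H661 libraries (exact p = 0.000700, adjusted p = 0.0421). They were the 2 members called as more often occupied in H661, where 1.48% of all promoters were called, and no member was called in the other direction, where 0.180% were. By the same exact test both calls were lost without the second monoclonal Flag library (adjusted p = 0.0525 for both) and with MACS2 peaks (adjusted p = 0.0524 for PCDHGB7 and 0.500 for PCDHGA11), although in MACS2 neither had a peak in any H1299 library. With the H1299 libraries of 1 replicate set at a time no promoter of the 19970 was called (smallest adjusted exact p = 0.240 without replicate 1 and 0.197 without replicate 2), while the unadjusted p of PCDHGB7 and PCDHGA11 was under 0.05 with either set. In the exact test PCDHGA10 was at 0 of 12 and 4 of 6 (adjusted p = 0.154), PCDHGA7 at 0 of 12 and 3 of 6 (adjusted p = 0.425), and PCDHA11 at 8 of 12 and 0 of 6 (adjusted p = 0.313). The test counts each library as separate, but libraries of one line share their cells, so that these p-values describe the libraries and not repeated cultures of a line, and the line, the source of the proteins, the antibodies and the depth differed together, so that their parts in these counts cannot be told apart.

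Folds could be read in the libraries with a domain alone. At PCDHGB7 the 5 H661 libraries with a domain had log2 folds from 2.37 to 6.16 with a median of 5.70, and 5 MACS2 peaks of 4.13- to 9.88-fold. PCDHGA11 had a median of 4.72 (2.13 to 6.12). PCDHA11 in its 8 H1299 libraries had weaker domains, with a median of 1.72 (1.08 to 2.93), and MACS2 peaks of 3.85- to 7.89-fold in 4 of the 12. At 4 of the 8 members occupied in both lines, the median log2 folds in H1299 and H661 were 4.25 and 4.21 at PCDHAC1, 4.42 and 3.85 at PCDHAC2, 4.24 and 5.58 at PCDHGA3, and 4.13 and 2.15 at PCDHB5. The ranges of the lines overlapped at each of these 4 promoters, and also at PCDHA4, PCDHA5 and PCDHB2. At PCDHB11 the 1 H661 domain (3.89) lay above the H1299 range (1.77 to 3.65). Of the 197 domains, 68 had no IgG read, and the caller's fold there equals that of 0.25 IgG reads, or of fewer (down to 0.100) at 8 of them, so that high folds partly mark an absence of background reads.

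Domains counted here touched the 1500 bp either side of the TSS, so their nearness to it was partly set by that rule. Their median length was 600 bp and the longest was 2200 bp (DPPA4n at PCDHAC1 in shDPPA2+4 with water). The median midpoint lay 207.5 bp after the TSS (quartiles 121.5 and 332.5), and 119 of the 197 domains (60.4%) covered the TSS, against 70.5% of the domains at all promoters and 17.7 to 90.2% in single libraries. MACS2 summits, 114 in all, had a median of 152 bp after the TSS. In the plot of domain extents, the domains of H1299 and H661 overlap at the promoters occupied in both lines.

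**Figure D2:**
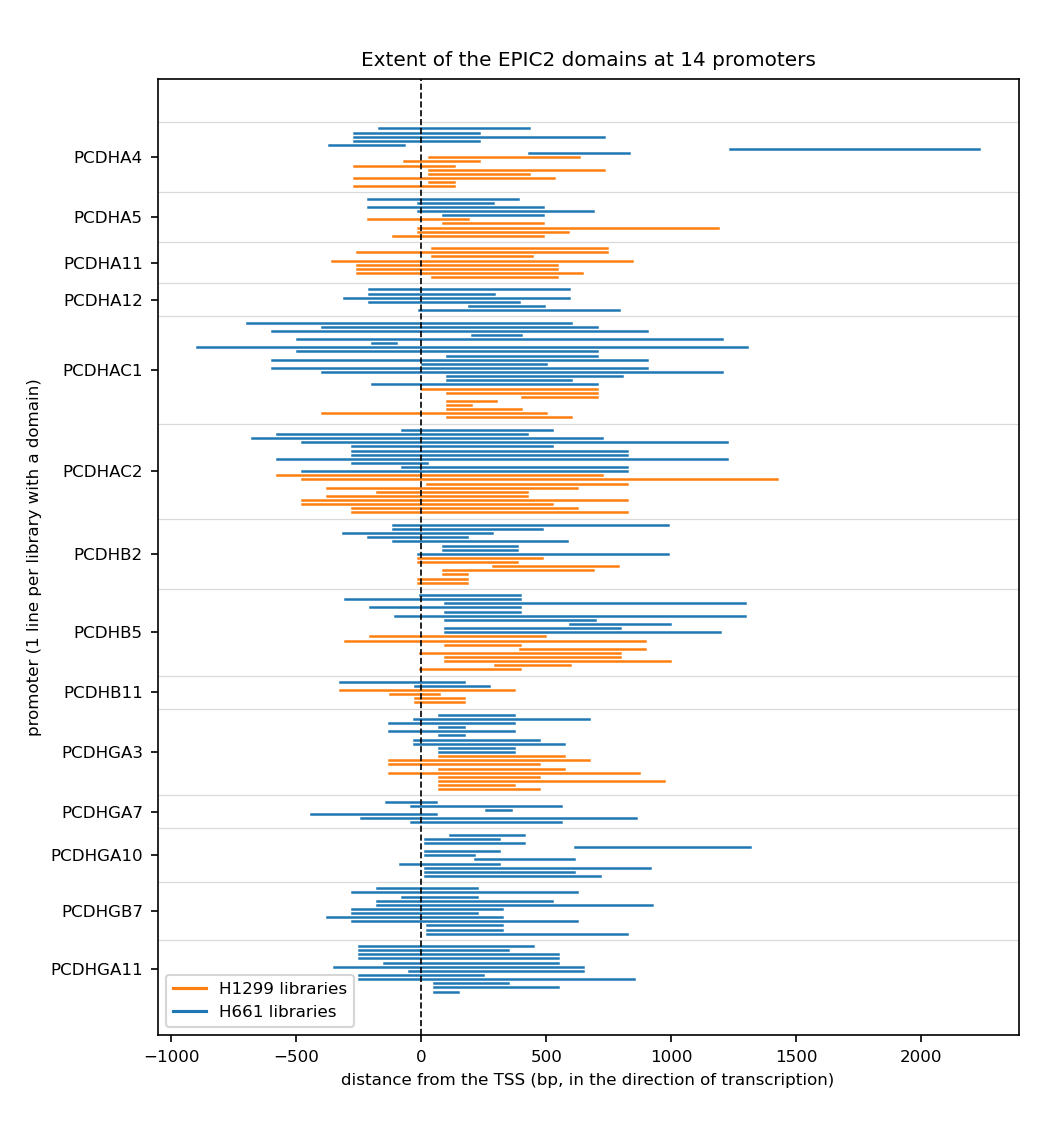
Start and end of the strongest EPIC2 domain, in bp from the TSS (dashed line), at the 14 promoters with domains in 6 or more libraries, with 1 line per library (orange H1299, blue H661). Most lines lie over or just after the TSS, and PCDHGA7, PCDHGA10, PCDHGB7, PCDHGA11 and PCDHA12 have blue lines alone.

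The CpG ratios of the occupied and the empty members overlapped. The 14 promoters with domains in 6 or more libraries had a median CpG ratio of 0.679 (0.448 to 0.914), and the 29 without any domain 0.674 (0.193 to 0.837). Their median GC contents were 46.3% and 44.1%. Over the 53 members, which share the same libraries, the number of libraries with a domain had a Pearson's r of 0.17 and a Spearman's rho of 0.02 with the CpG ratio, and of 0.42 and 0.12 with the GC content, given as a description. PCDHAC1 and PCDHAC2, in the most libraries, had the highest GC contents of the 53. PCDHA3 and PCDHGB6 stood at high CpG ratios without a domain, and PCDHB11, a CpG-poor promoter, had 6.

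Polycomb proteins and EP300 were then read in the water arms of the shRNA lines. DPPA4n, the reference in these lines, had domains at 14 members in shDPPA4 and 13 in shDPPA2+4 (71.7% and 67.7% of all promoters), of which 13 were shared (67.1%). RING1B, the catalytic subunit of Polycomb repressive complex 1, stood at 11 and 6 members (63.7% and 60.0%), and at 6 in both lines (57.6%): PCDHA5, PCDHAC1, PCDHAC2, PCDHGA10, PCDHGB7 and PCDHGA11. All 6 were among the 13 with DPPA4n domains in both lines, as were 94.9% of all promoters with RING1B in both. PCGF1 had a domain at PCDHAC1 and at no other member in either line (25.7% and 24.3%, and 16.0% in both), and it held 9 and 8 reads. MTF2 stood at 3 and 7 members (61.5% and 62.1%), and in both lines at PCDHAC1 and PCDHAC2 (56.4%). EP300 stood at 4 and 3 members (50.1% and 52.5%), and none was shared, against 45.6% of all promoters with EP300 and 42.3% with EP300 and RING1B in both lines.

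By MACS2, PCDHAC1 had the highest MTF2 and RING1B folds of any member in both lines, whereas its EPIC2 log2 fold for RING1B, 3.17 in shDPPA4 and 3.64 in shDPPA2+4, was exceeded by others (5.52 at PCDHGB7 in shDPPA4 and 4.06 at PCDHAC2 in shDPPA2+4). Its MTF2 peak was 19.5-fold over IgG in shDPPA4 and 28.2-fold in shDPPA2+4, with 125 and 228 reads in the domain, and its RING1B peak was 11.8- and 10.9-fold, with 63 and 47 reads. The MTF2 peaks of PCDHAC2 were 8.36- and 10.7-fold, and its RING1B peaks 3.07- and 4.49-fold. At PCDHGB7 RING1B peaks were 5.90- and 7.13-fold, and an MTF2 peak (4.70-fold) was called in shDPPA2+4 alone. PCDHGA11 had RING1B peaks of 11.5- and 6.11-fold and no MTF2 peak in either line. EP300 had a MACS2 peak at 1 member in shDPPA4, PCDHGA3 (5.12-fold), and at none in shDPPA2+4 (34.4% and 42.5% of all promoters).

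Doxycycline, which induces the shRNAs, was set against water in each line with 1 library per arm, so the differences have no replicate check and no test. In shDPPA4 the number of members with a DPPA4n domain went from 14 to 5 (56.8% of all promoters with doxycycline). The 9 lost were PCDHA4, PCDHA5, PCDHAC2, PCDHB2, PCDHB5, PCDHB11, PCDHGA7, PCDHGA11 and PCDHGC3, against a loss at 21.0% of all promoters with a domain in the water arm, and no member gained one (0.514% of all others). The doxycycline library was 0.561 times the size of the water library, and the part of this in the lost calls was not tested. In shDPPA2+4 members with a DPPA4n domain went from 13 to 11 (61.4%), with PCDHB2 and PCDHGC3 lost (9.84%) and none gained (1.24%), in a library 1.93 times the size of its water arm. MACS2 peaks of DPPA4n went from 10 members to 5 in shDPPA4 (67.3% and 51.7% of all promoters) and from 12 to 6 in shDPPA2+4 (65.7% and 56.6%). In shDPPA4 PCDHB2, which lost its domain, kept a MACS2 peak (11.5-fold with water and 4.12-fold with doxycycline).

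At promoters with a DPPA4n domain in both arms, reads per kb of domain and per library read were set side by side. Domains were called in each arm separately, so this density moves with the length called, and the domains of the doxycycline arm were the shorter at all 5 members in shDPPA4 and all 11 in shDPPA2+4. In shDPPA4 2 of 5 members were lower, with a median log2 change of 0.36, while 77.1% of all promoters were lower with a median of -0.37. The lowest ratio was at PCDHGB7, where 53 reads over 0.9 kb went to 9 over 0.5 kb (log2 change -0.88, 95% exact interval -2.08 to 0.16), and the highest at PCDHGA3, from 41 reads over 0.5 kb to 7 over 0.1 kb (0.61, -0.80 to 1.78). All 5 intervals held 0, and by the caller's own log2 folds over IgG all 5 were lower, PCDHGA3 going from 5.79 to 4.68. In shDPPA2+4 8 of 11 members were lower, with a median of -0.62, and 89.5% of all promoters were lower, also with a median of -0.62. The lowest ratio was at PCDHAC2 (56 reads over 1.7 kb to 21 over 0.6 kb, log2 change -0.86, interval -1.66 to -0.11), although its log2 fold over IgG went up from 4.72 to 5.36. These folds rested on 2 IgG reads with water and no IgG read with doxycycline. The highest was at PCDHGA3 (0.21, -0.73 to 1.14), and PCDHAC1 was the other member whose interval left out 0 (-0.73, -1.28 to -0.18). The density and the log2 fold moved the same way at 2 of 5 members in shDPPA4 and 7 of 11 in shDPPA2+4. The intervals cover counting error alone and not the length called.

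For RING1B the direction of the count in shDPPA4 depended on the caller. MACS2 peaks went from 10 members to 5 in shDPPA4 (58.7% and 48.3% of all promoters) and from 9 to 1 in shDPPA2+4 (57.3% and 28.1%). EPIC2 gave more members with doxycycline in shDPPA4 and fewer in shDPPA2+4. In shDPPA4 members with a RING1B domain went from 11 to 14 (65.7% of all promoters), with PCDHA5 lost (3.93% of all promoters lost theirs) and PCDHA12, PCDHB6, PCDHB7 and PCDHB11 gained (12.4%). In shDPPA2+4 they went from 6 to 3 (48.6%), with PCDHA5, PCDHAC2 and PCDHGA10 lost (22.8%) and none gained (5.72%), which left PCDHAC1, PCDHGB7 and PCDHGA11. The doxycycline libraries were 1.28 and 1.62 times the size of the water libraries. In shDPPA4 the density was lower at 7 of 10 members with a domain in both arms (median log2 change -0.32), with 75.5% of all promoters lower (median -0.28). The lowest ratio was at PCDHGA10, from 14 reads over 0.2 kb in 1 domain to 28 over 1 kb in 2 domains (-1.68, -2.66 to -0.64). Its log2 folds over IgG, 3.004 with water and 4.16 with doxycycline, came from different stretches of DNA. The water domain lay 14 to 213 bp after the TSS. The stronger doxycycline domain lay 614 to 1313 bp after it, with 10 reads and no IgG read. PCDHB5 (-1.12, -2.13 to -0.10) and PCDHGA11 (-0.84, -1.503 to -0.17) were the other members whose intervals left out 0, and both had longer domains with doxycycline. The highest ratio was at PCDHGA7 (1.06, -0.39 to 2.38). In shDPPA2+4 all 3 were lower (median -0.61), as were 94.3% of all promoters (median -0.69), with PCDHGB7 the lowest (-0.84, -2.18 to 0.52) and PCDHGA11 the least lowered (-0.42, -1.43 to 0.59). At PCDHAC1, with the most RING1B reads, 63 went to 71 in shDPPA4 (0.14, -0.37 to 0.65) and 47 to 43 in shDPPA2+4 (-0.61, -1.25 to 0.01).

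Outside the promoters, 1 site within the clusters was called almost everywhere. It lay at chr5:141039501-141041700, 27.2 kb after the last alpha exon and 9.67 kb before the PCDHB1 start, in no annotated protein-coding promoter, and had a domain in 27 of the 30 libraries and a MACS2 peak in 17. Its log2 folds ran from 1.06 to 5.86 with a median of 2.64, and its MACS2 folds from 3.90 to 23.8. The site had a domain in more libraries than any member promoter, and the 3 without a domain there were the second monoclonal Flag library, DPPA4c and PCGF1 in shDPPA4. IgG reads stood there too, up to 8 in a domain (DPPA4n in H1299 replicate 1, 114 reads). The highest log2 fold, with ab154642 in parental H661, rested on 14 reads and no IgG read. The lowest, for MTF2 in shDPPA4 with water, rested on 26 reads and 5 IgG reads. The TAF7 promoter between the beta and gamma clusters, a general transcription factor subunit gene, had a domain in 23 libraries. Of the 38 protein-coding promoters within 1 Mb on either side that are no members, 20 (52.6%) had both DPPA2 and DPPA4n peaks in parental H661, so that the low share among the members was not shared by the genes around them.

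Related and contrasting gene lists were counted in the same way, for DPPA2 with DPPA4n in parental H661 (39.2% of all promoters). Among non-clustered protocadherins, the relatives with separate loci, 6 of 12 had both: PCDH1, PCDH7, PCDH8, PCDH9, PCDH10 and PCDH17. Among a list of cadherin genes with CDH names, which are calcium-dependent adhesion genes, the number was 6 of 19. Factors that act on the protocadherin clusters had both at 11 of 15, including CTCF, SMCHD1, DNMT3B and the cohesin genes SMC3 and STAG1, and HOX genes, well-known Polycomb targets, at 27 of 39. Among the factors, SETDB1, TRIM28, WIZ and the cohesin gene RAD21 did not have both. For RING1B in the water arms of both shRNA lines the counts were 8 of 12, 8 of 19, 13 of 15 and 31 of 39, beside the 6 of 53 clustered protocadherins, and for MTF2 they were 9 of 12, 13 of 19, 11 of 15 and 23 of 39, beside 2 of 53.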

How the data were processed

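Per the labels and the methods of the study, reads were trimmed with Trim Galore 0.6.6, aligned to hg38 with BWA 0.7.13 and processed with SAMtools 1.9 and Picard 2.6.0, and regions were called with MACS2 (2.27.1 in the submitters' processing notes) and with EPIC2 at 100 bp bins, against IgG. The deposited EPIC2 lists give for each domain read counts in the library and in IgG, a p-value, an FDR (also a p-value here), a log2 fold and a score. The deposited MACS2 lists give for each peak a fold (ratio) over the control, −log10 p- and q-values and a score. No aligned reads were used, and reads outside regions are not in these lists. Near-identical members could share reads, whose handling is not given in the sources used here.

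Regions with FDR under 0.05 and log2 fold above 1 on autosomes and X were joined to TSS plus or minus 1500 bp of GENCODE 44 genes. MACS2 was used for parental H661 and EPIC2 for the other libraries unless stated. No region ran past a chromosome end of the reference. The ENCODE blacklist was not applied. For doxycycline against water, library size ratios came from the constant between the deposited log2 fold and the ratio of counts, as both arms share their IgG. Intervals are exact (Clopper-Pearson, 95%). The Fisher test was checked on simulated libraries drawn independently of each other. That check could not cover the cells and IgG controls that the real libraries share. Python 3.11.15, pandas 2.3.3 and scipy 1.17.1 were used. The members, lists and tests were chosen with earlier results of these data known.

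Named genes were members with DPPA2 and DPPA4n peaks in parental H661, the C-type genes, per cluster the genes with regions in most and fewest libraries, and for each protein and shRNA line the largest fall and rise in density. Others were named after their values were seen. Sequences shown were chosen per cluster by the highest DPPA2 fold and by the highest CpG ratio without a peak, plus 1 pair added later. Alternatives were a 500 bp window, the other caller, a log2 fold above 2 or no fold limit, regions covering the TSS, the gene's 5' end as TSS, other antibodies, single replicates, and other measures of the doxycycline change.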

Additional observations from a re-analysis of the deposited data

Results flagged for a closer look

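The change in the number of members with a RING1B domain after doxycycline had opposite signs in the shRNA lines by EPIC2, 3 more in shDPPA4 and a change of -3 in shDPPA2+4, and the same sign by MACS2 peaks (-5 and -8). The difference between the lines was not tested, since each arm was 1 library, and the doxycycline libraries were 1.28 and 1.62 times the size of their water libraries. The median log2 change in DPPA4n density at members with a domain in both arms was 0.36 in shDPPA4 (5 members) and -0.62 in shDPPA2+4 (11 members), and this difference was not tested either. The caller's log2 folds over IgG were lower at 5 of 5 and 8 of 11 of these members.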

How the results depend on the processing

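Of 99 alternative counts for 20 results, 69 stayed within 1.5 times the reported count. Among the 69 were counts of 0 that stayed 0, as for EP300 in both shRNA lines and for members called as more often occupied in H1299. Lifting the limit on the fold changed none of the counts it was applied to. For DPPA2 with DPPA4 in parental H661 (4 members) the count was 7 with EPIC2 domains, 2 where the peak had to cover the TSS and 0 with the central-region antibody. By cluster, the alpha count of 2 became 1 with ab154642 and 0 with the central-region antibody, the beta count of 0 became 2 with EPIC2 and 1 with ab154642, and the gamma count of 2 became 0 for peaks covering the TSS and 0 with the central-region antibody. For H1299 (1 member) the count was 0 with MACS2, 3 with the superclonal Flag and V5 antibodies, and 1 to 8 with a single replicate. The PCGF1 count of 1 became 0 with MACS2 and 0 for domains covering the TSS. Counts of members with lower DPPA4 density in shDPPA4 (2) became 5 by the difference of log2 folds, 4 by MACS2 folds and 5 without scaling for library size, and those in shDPPA2+4 (8) became 5 by MACS2 folds and 0 without scaling. For RING1B, the 7 in shDPPA4 became 4 by MACS2 folds, and the 3 in shDPPA2+4 became 1 by MACS2 folds and 1 without scaling. With MACS2 peaks, also added after seeing the data, the change in members called after doxycycline turned from 3 to -5 for RING1B in shDPPA4 and went from -3 to -8 in shDPPA2+4, and for DPPA4 from -9 to -5 and from -2 to -6. The 2 members called between the lines became 0 with MACS2 and 0 without the second monoclonal Flag library or without either set of replicates (fewer libraries tested), alternatives added after seeing the data. The cause of the other differences was not tested. No paired analysis was possible because the replicate numbers of H1299 have no second condition to pair. Apart from the Fisher test between the lines, the counts of domains come from no test. The median domain at a member held 16 reads, and whether depth bears on the absent calls was not tested.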

Other observations

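Among pairs of the 14 members with domains in 6 or more libraries, PCDHAC2 and PCDHGA3 shared the largest part, with domains in the same 17 libraries of 23 in which either had one, while PCDHAC1 and PCDHAC2 shared more libraries but a smaller part (18 of 27). PCDHGB7 and PCDHGA11 shared 10 of 14. A second site between genes, at chr5:141084001-141085500 in the beta cluster, had domains in 7 libraries, all from H661.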
